A study of Mus musculus with 12 samples.

Results

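The 5 genes studied here, the D-type cyclins Ccnd1, Ccnd2 and Ccnd3 and their partner kinases Cdk4 and Cdk6, were followed through 4 stages of mouse male germ cell development. They are the 5 of 55487 genes in the deposited expression table whose Ensembl identifiers carry these symbols, and all 5 passed the filter on low values. The table holds 12 RNA sequencing libraries of gonocytes, the male germ cells that precede spermatogonia, with 3 libraries at each of E13.5 and E16.5 (embryonic days), P0 (the day of birth) and P3 (postnatal day 3). All cells came from testes of Mvh-Venus transgenic mice, in which a fluorescent protein driven by the germ cell gene Mvh (Ddx4) marks the germ line. Titles and source names call the mice wild type (WT) at each stage, while a genotype tag reads Morc1 (+/-) at E13.5 and P0 and Morc1 (-/-) at E16.5 and P3. Stage and that tag cannot be told apart where a comparison crosses them. The labels do not say whether the 3 libraries of a stage came from separate animals, so p-values measure only the spread between these libraries, which may be technical.

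D-type cyclins link growth signals to the cell cycle. A cyclin D binds CDK4 or CDK6, the complex phosphorylates the retinoblastoma protein and its relatives, and E2F factors are then released to switch on genes of DNA replication. INK4 proteins block the kinases, and CIP/KIP proteins bind whole cyclin and kinase complexes. Fetal male germ cells divide, enter a long mitotic arrest before birth and resume division after it, so the 4 stages span a dividing, an arrested and a dividing state. The question put to the data was which cyclin D was present at each dividing stage.

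The make-up of the cyclin D transcripts differed between the early and the late dividing stage. At E13.5 Ccnd3 made up most of the cyclin D signal and Ccnd2 was at its lowest. At P3 all 3 cyclins were at their highest, with Ccnd2 61.4-fold, Ccnd1 10-fold and Ccnd3 1.34-fold above E13.5. Cdk4 and Cdk6 were both lower at P3 than at E13.5, at 0.595 and 0.323 of the earlier level.

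For the kinase Cdk4 and the cyclin Ccnd3, RefSeq (GRCm38.p6) gives start sites whose upstream 250 bases are shown here because they differ in the E-box CACGTG, the site that MYC family proteins bind. The Cdk4 window lies at chr10:127063285-127063534 on the plus strand and the Ccnd3 window, at the more upstream of its 2 start sites, at chr17:47504801-47505050 on the plus strand. Both are printed 5′ to 3′ with CACGTG in capitals.
Cdk4: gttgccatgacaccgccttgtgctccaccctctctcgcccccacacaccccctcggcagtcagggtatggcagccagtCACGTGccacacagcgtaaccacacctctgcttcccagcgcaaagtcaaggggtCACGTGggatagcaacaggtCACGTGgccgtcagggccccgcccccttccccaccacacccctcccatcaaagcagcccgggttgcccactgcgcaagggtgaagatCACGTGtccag
Ccnd3: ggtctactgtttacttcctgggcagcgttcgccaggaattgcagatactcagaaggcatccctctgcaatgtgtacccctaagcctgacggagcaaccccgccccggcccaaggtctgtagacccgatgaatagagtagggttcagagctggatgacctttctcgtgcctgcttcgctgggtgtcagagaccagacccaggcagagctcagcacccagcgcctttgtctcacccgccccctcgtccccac
The Cdk4 window holds 4 copies of CACGTG, whose first bases lie at -172, -118, -98 and -11 counted from the start site. The Ccnd3 window holds 0. The motif reads the same on both strands, and 6.02% of 32851 mouse promoter windows of the same length hold it, while 20 of them (0.0609%) hold 3 or more copies. The corresponding Cdk6 window holds 1 copy and the window at the second Ccnd3 start holds 0. The E2F motif TTTNGCGC, searched on both strands and present in 1.13% of all windows, was found in 0 of these 4 windows. The LEF/TCF motif CTTTGAT (3.21% of windows) was found once, in the Cdk4 window, and the CRE core TGACGT (6.47% of windows) once, at the second Ccnd3 start. These matches describe letters in a window and say nothing of occupancy, which was not analysed here. The promoter set used held no entry for Ccnd1 or Ccnd2, and which Ccnd3 start site these cells use was not tested.

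The libraries held 40946616 to 51533747 reads. The lowest read number behind any value of these genes was 73 (Ccnd1 at E16.5). Values are normalized counts, the reads of a gene after division by the size factor of its library, and the 3 libraries of a stage are named by the numbers 1, 3 and 4 that the table gives them. Germ cell identity was checked with 7 fixed markers (Ddx4, Dazl, Mael, Piwil2, Dnd1, Nanos2 and Nanos3), whose summed level as deposited was 145249 to 155638 at P0 and 239524 to 278411 at the other stages. As a share of each library's reads the order differed, with 0.477% to 0.485% at E13.5, 0.693% to 0.729% at E16.5, 0.617% to 0.657% at P0 and 0.570% to 0.586% at P3. Ddx4 itself was at 58928 ± 3355, 49639 ± 4831, 23180 ± 1089 and 49336 ± 277 normalized counts in stage order (SD, n = 3), and Nanos2 and Nanos3 were low at P0, at 10.2 ± 3.36 and 34.0 ± 12.4. Mael and Piwil2 were 3.13-fold and 2.44-fold higher at P0 than at E13.5, so the germ cell markers did not move as one.

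**Figure D1:**
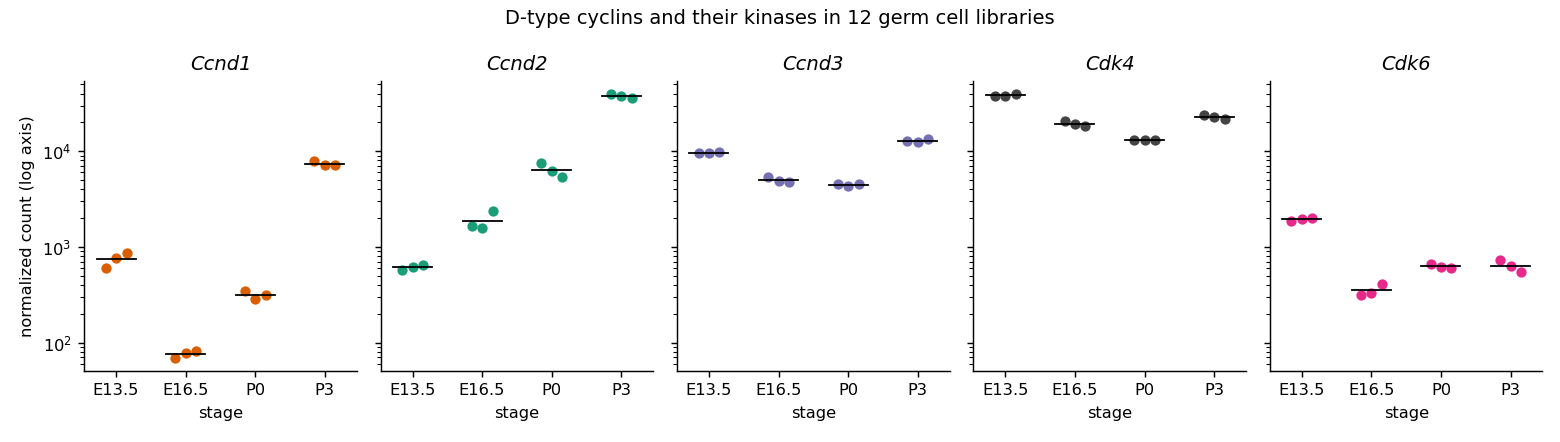
Normalized counts (log axis) of Ccnd1, Ccnd2, Ccnd3, Cdk4 and Cdk6 in each of the 12 libraries by stage. Points are libraries and lines are stage means (n = 3). Ccnd1 is lowest at E16.5, Ccnd2 is higher at each later stage, Ccnd3 and Cdk4 are lower at E16.5 and P0 than at E13.5 and P3, and Cdk6 is highest at E13.5. Under scaling to equal library totals, Ccnd3 at P0 no longer lies below E13.5 and Cdk4 at P0 no longer lies below P3 or E16.5. Cdk4 at E16.5 is not told apart from P3 with that scaling (adjusted p = 0.293, limma) or with median-of-ratios factors (adjusted p = 0.472).

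Ccnd1 (ENSMUSG00000070348) lies at chr7:144929931-144939925 on the minus strand (GRCm38, GENCODE M21) and encodes cyclin D1, the D cyclin most often tied to growth factor signalling. Libraries 1, 3 and 4 of E13.5 gave 599.6, 769.3 and 853.9 normalized counts, and those of E16.5 gave 69.7, 78.1 and 82.3. The P0 libraries gave 344.1, 282.6 and 312.3, and the P3 libraries gave 7891, 7140 and 7119. As deposited, no 2 stages overlapped, and the order from low to high was E16.5, P0, E13.5 and P3. With equal library totals, P0 (452.3 to 524.6) lay within the range of E13.5 (417.9 to 602.4). The log2 difference was then -0.06 (adjusted p = 0.665, limma). As deposited, the level fell by 3.24 ± 0.129 on the log2 scale from E13.5 to E16.5 (SE; adjusted p = 6.78e-13, limma), to 0.106 of its earlier value. It rose by 2.01 from E16.5 to P0 (adjusted p = 9.03e-10) and by 4.56 from P0 to P3 (adjusted p = 5.02e-14, 23.6-fold). With equal library totals these 3 log2 differences were -2.74, 2.68 and 3.72. From E16.5 to P3 the rise was 95.2-fold as deposited, and both of those stages carry the Morc1 (-/-) tag.

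Ccnd2 (ENSMUSG00000000184) lies at chr6:127125162-127152193 on the minus strand and encodes cyclin D2, the D cyclin known for its part in spermatogonia. It was the one member that was higher at each later stage. Libraries 1, 3 and 4 gave 571.1, 621.3 and 643.6 for E13.5 and 1662, 1567 and 2388 for E16.5. From birth on they gave 7604, 6202 and 5396 for P0 and 39378, 37990 and 35523 for P3. The 4 stages did not overlap, and library 4 stood apart from the other 2 at E16.5. The steps were 1.59 ± 0.136, 1.78 ± 0.136 and 2.57 ± 0.136 on the log2 scale (SE; adjusted p = 1.31e-08, 7.98e-09 and 3.78e-11, limma), that is 3.01-fold, 3.44-fold and 5.93-fold. With equal library totals the steps were 2.09, 2.45 and 1.73. From E13.5 to P0, the 2 stages that share the Morc1 (+/-) tag, Ccnd2 rose by 3.37 as deposited (10.4-fold, adjusted p = 4.71e-13).

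Ccnd3 (ENSMUSG00000034165) lies at chr17:47505051-47599691 on the plus strand and encodes cyclin D3, which is widely expressed and often kept on in differentiating cells. Its E13.5 libraries held 9579, 9567 and 9789 normalized counts and its E16.5 libraries 5351, 4913 and 4727. P0 gave 4490, 4300 and 4592, and P3 gave 12639, 12552 and 13461. As deposited, the 2 middle stages lay close to each other and below both dividing stages, while with equal library totals P0 and E13.5 were not told apart (0.06, adjusted p = 0.376). As deposited, Ccnd3 fell by 0.95 ± 0.0649 on the log2 scale from E13.5 to E16.5 (SE; adjusted p = 6.5e-10, limma) and rose by 1.53 from P0 to P3 (adjusted p = 2.47e-12, 2.89-fold). With equal library totals these differences were -0.44 and 0.69. Between E16.5 and P0 the difference was -0.16 (adjusted p = 0.0399), a call that was lost with TMM factors (-0.05, adjusted p = 0.532) and that turned to 0.10 with median-of-ratios factors and to 0.50 with equal library totals. It was also lost on leaving out E16.5 library 1 (-0.11, adjusted p = 0.148), E16.5 library 3 (adjusted p = 0.0514), P0 library 1 (adjusted p = 0.0651) or P0 library 3 (adjusted p = 0.135). The order of Ccnd3 at E16.5 and P0 thus depended on these choices.

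Cdk4 (ENSMUSG00000006728), the cyclin D partner with the shorter gene, lies at chr10:127063534-127067920 on the plus strand. The E13.5 libraries held 37814, 37728 and 39111 normalized counts, those of E16.5 held 20530, 19096 and 18402, and those of P0 held 13214, 13130 and 13106. The P3 libraries held 23735, 22560 and 21940. E13.5 was thus the highest stage and P0 the lowest, with a spread at P0 of 56.5 (SD). Cdk4 fell by 0.98 ± 0.0617 on the log2 scale from E13.5 to E16.5 (SE; adjusted p = 2.16e-10, limma) and by 0.56 from E16.5 to P0 (adjusted p = 7.73e-07), though the second difference became 0.11 with equal library totals. From P0 to P3 it was higher by 0.79 (adjusted p = 4.97e-09), a value that became -0.05 with equal library totals. P3 exceeded E16.5 by 0.23 (adjusted p = 0.00294), which was lost with median-of-ratios factors (0.05, adjusted p = 0.472) and with equal library totals (0.06, adjusted p = 0.293).

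Cdk6 (ENSMUSG00000040274), the kinase partner best known from blood cells, lies at chr5:3341485-3531008 on the plus strand. Its E13.5 libraries gave 1876, 1946 and 2025, and its E16.5 libraries 314.9, 331.95 and 413.9. P0 libraries gave 663.6, 620.6 and 607.2, and P3 libraries 724.8, 624.6 and 546.6. As deposited, E13.5 was far above the rest, and P0 and P3 overlapped. With equal library totals the means were 1377 at E13.5 and 1001 at P0. The log2 difference of P0 against E13.5 moved from -1.63 as deposited to -0.46 with that scaling. Cdk6 fell by 2.47 ± 0.120 on the log2 scale from E13.5 to E16.5 (SE; adjusted p = 7.61e-12, limma) and rose by 0.84 from E16.5 to P0 (adjusted p = 1.29e-05). The difference between P3 and P0 was close to 0 (adjusted p = 0.972) as deposited, and it was -0.44 with median-of-ratios factors (adjusted p = 0.00241) and -0.84 with equal library totals (adjusted p = 1.4e-05).

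Differences of this kind were common among all genes, so the counts of members called need a background. Over 22384 genes tested, 80.1% differed between E16.5 and E13.5, 61.0% between P0 and E16.5, 76.5% between P3 and P0, 70.4% between P3 and E13.5, 86.1% between P0 and E13.5 and 69.5% between P3 and E16.5. Of the 5 members, 5 were called in each comparison other than P3 against P0, where 4 were. With shares this high, a call alone says little about these 5 genes, and the sizes carry the description. The share of all genes whose libraries did not overlap between stages was not counted. Lack of overlap is therefore not a trait particular to the members. All genes together had medians of 0.31, -0.01, 0.05 and 0.16 on the log2 scale for E16.5 against E13.5, P0 against E16.5, P3 against P0 and P3 against E13.5.

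Levels at P0 depended on the scaling between libraries. Factors that equalize library totals were 0.629 times those of the file at P0 and 1.42 times at E13.5, and median-of-ratios factors were 0.815 and 1.14 times. The median of all genes for P3 against P0 moved from 0.05 to -0.42 with median-of-ratios factors and to -0.86 with equal library totals, and for P0 against E13.5 from 0.20 to 0.75 and 1.51. Scaling shifts all genes by nearly the same amount, so differences relative to the median change little by construction and are no sign of stability. They depend on which genes set the median instead. Over the 13135 genes with means of 100 or more, the medians were -0.27, -0.29, 0.58 and -0.09 in the order given above and -0.71 for P0 against E13.5. Relative to all genes and to this second set, Cdk4 at P3 against P0 stood at 0.74 and 0.21, Ccnd3 at P0 against E13.5 at -1.31 and -0.41, and Ccnd3 at P0 against E16.5 at -0.15 and 0.13. For P3 against E13.5 the values were 5.78 and 6.03 for Ccnd2 and -0.91 and -0.66 for Cdk4. With equal library totals, the log2 fold change of Ccnd3 at P0 against E13.5 moved from -1.11 (adjusted p = 5.51e-11, limma) to 0.06, and that of Ccnd1 from -1.23 to -0.06.

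**Figure D2:**
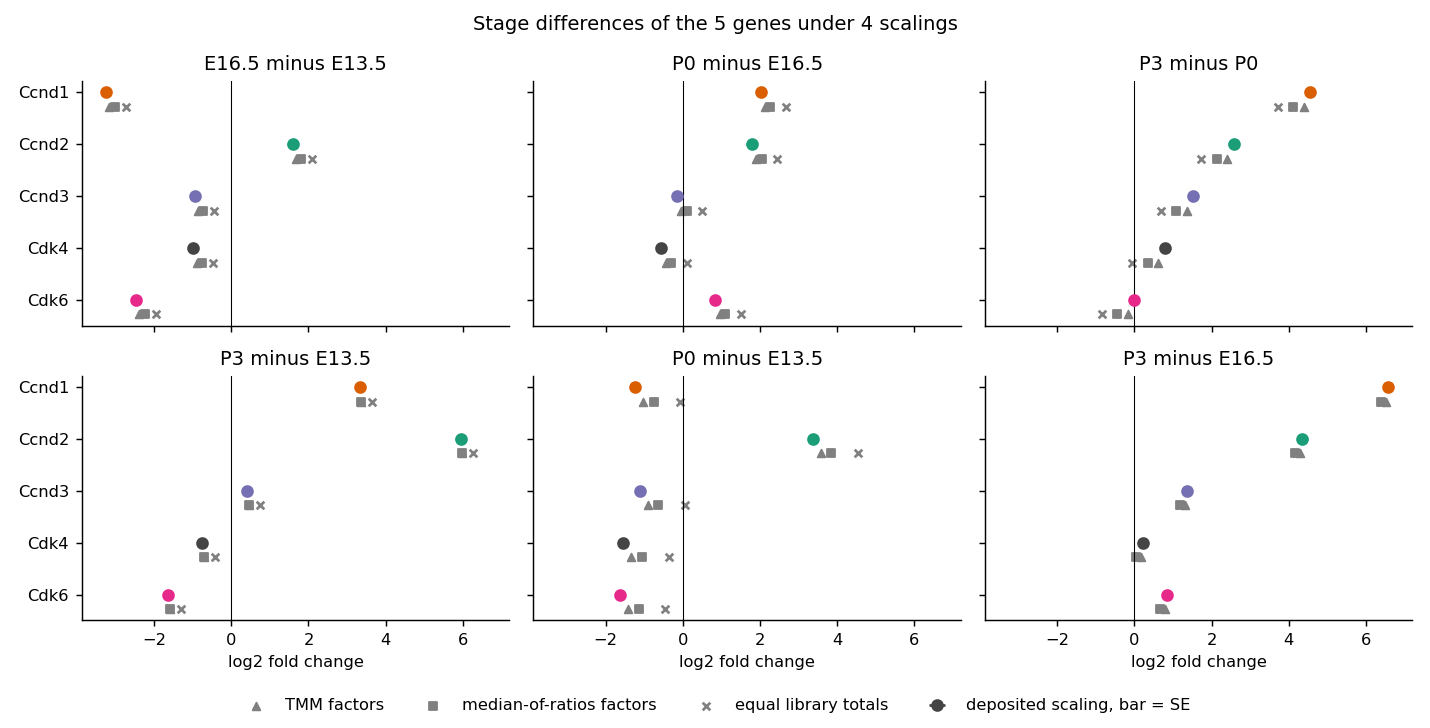
Log2 fold changes of the 5 genes in the 6 comparisons of stages. Coloured points use the deposited scaling, with SE bars that are mostly shorter than the points, and grey symbols use TMM factors, median-of-ratios factors or equal library totals. The comparison of P3 with E13.5 keeps each gene's direction under all 4 scalings, while Ccnd3 and Cdk4 cross 0 in comparisons that involve P0.

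The direct comparison of the dividing stages, P3 against E13.5, does not use the P0 libraries, and it crosses the genotype tag. Ccnd2 was higher by 5.94 ± 0.136 on the log2 scale (SE; adjusted p = 2.24e-15, limma), Ccnd1 by 3.33 ± 0.129 (adjusted p = 1.01e-12) and Ccnd3 by 0.42 ± 0.0649 (adjusted p = 2.28e-05). Cdk4 fell by 0.75 ± 0.0617 (adjusted p = 1.2e-08) and Cdk6 by 1.63 ± 0.120 (adjusted p = 2.77e-09). All 3 libraries of P3 lay on the stated side of all 3 of E13.5 for each gene, and the share of all genes that did so was not counted. These 5 calls and directions held under each of the 16 alternatives run, among which Ccnd2 ranged from 5.89 to 6.27 and Ccnd3 from 0.39 to 0.75.

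Levels of different genes were compared per kilobase of transcript, first over the union of each gene's exons (4709 bases for Ccnd1, 9409 for Ccnd2 and 8775 for Ccnd3). At E13.5 Ccnd3 held 83.2% ± 1.87 of the summed cyclin D level per kilobase, Ccnd1 11.9% ± 1.72 and Ccnd2 4.92% ± 0.153 (SD, n = 3). At E16.5 the shares were 72.7% ± 5.34 for Ccnd3, 25.3% ± 5.26 for Ccnd2 and 2.08% ± 0.205 for Ccnd1. Ccnd2 held 53.9% ± 4.39 at P0 and 56.8% ± 1.30 at P3, against 40.8% ± 4.13 and 20.9% ± 1.43 for Ccnd3. Ccnd1 held 5.30% ± 0.373 at P0 and 22.3% ± 0.629 at P3.

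Part of this order rests on the length used. With the principal transcript of each gene (3740, 6330 and 2113 bases for Ccnd1, Ccnd2 and Ccnd3), Ccnd3 held 93.9% ± 0.734 at E13.5 and still led at P0 with 66.0% ± 3.87. At P3 Ccnd3 and Ccnd2 then lay side by side, at 43.5% ± 2.11 and 42.4% ± 1.72, and Ccnd1 held 14.1% ± 0.577. With the coding sequence (885, 867 and 876 bases), Ccnd2 led at P3 with 65.3% ± 1.43. Ccnd3 was thus the main cyclin D at E13.5 and E16.5 for each of the 3 lengths, and which of Ccnd2 and Ccnd3 led at P0 and P3 was not settled by these counts.

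**Figure D3:**
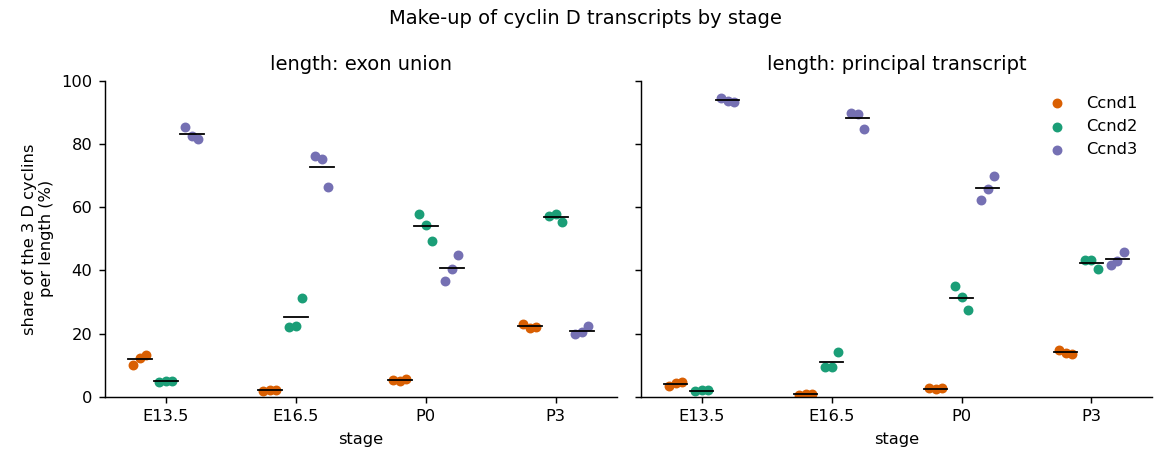
Share (%) of the summed length-scaled level of the 3 D cyclins held by each, by stage, with the exon union (left) or the principal transcript (right) as the length. Points are libraries and lines are means (n = 3). Ccnd3 holds most of the level at E13.5 with either length, while at P3 Ccnd2 leads with the exon union (56.8%) and is level with Ccnd3 with the principal transcript (42.4% and 43.5%).

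Ratios within a library depend neither on the scaling between libraries nor, for their change between stages, on the length. The ratio of Ccnd3 to Ccnd2 per kilobase of exon union averaged 16.9 in the E13.5 libraries (16.3 to 17.96), 2.91 in those of E16.5, 0.755 in those of P0 and 0.367 in those of P3 (0.344 to 0.406). Its log2 ratio fell by 5.52 from E13.5 to P3. The ratio of Ccnd2 to Ccnd1 averaged 0.417, 11.9, 10.1 and 2.55 in stage order, a log2 difference of 2.61 between P3 and E13.5. Ccnd3 stood at 7.05, 34.6, 7.65 and 0.937 times Ccnd1 in the same order, and its log2 ratio fell by 2.91 between the dividing stages. For each of these pairs the 3 P3 libraries lay apart from the 3 E13.5 libraries, and the two-sided exact permutation p was 0.1 (0.1 after adjustment over 4 pairs), the smallest that 3 against 3 can give.

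On the kinase side Cdk4 made up most of the transcript per kilobase of exon union (3249 bases, against 13989 for Cdk6). Of the summed kinase level, Cdk6 held 1.17% ± 0.0273 at E13.5 and 0.426% ± 0.0848 at E16.5 (SD, n = 3). From birth on it held 1.10% ± 0.0462 (P0) and 0.639% ± 0.0645 (P3). With the coding sequence as the length, its shares were 4.52%, 1.68%, 4.27% and 2.51% in stage order. The log2 ratio of Cdk6 to Cdk4 fell by 0.88 from E13.5 to P3, with the same exact permutation p of 0.1. The summed cyclin D level relative to the summed kinase level, both per kilobase of exon union, ran from 0.111 ± 0.00202 (E13.5) through 0.132 ± 0.00931 (E16.5) and 0.307 ± 0.0282 (P0) to 0.999 ± 0.00600 (P3). With principal transcripts it was 0.259, 0.284, 0.496 and 1.2597, and with coding sequences 0.285, 0.368, 0.849 and 2.59, so the order of the stages was the same while the level was not.

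Each of the 5 genes shares exonic bases with a gene on the opposite strand in GENCODE M21, and the strand setting of the counting is not given in the sources used here, so reads from those bases cannot be assigned. The overlap covers 23.4% of the Ccnd1 exon union (1100 bases, with LTO1) and 19.7% of that of Cdk4 (641 bases, with Tspan31). It is 4.11% or less for each single overlapping gene of the other 3, namely Bysl with Ccnd3, 9330179D12Rik and Gm43126 with Ccnd2, and Gm17590 with Cdk6. LTO1 stood at 370.6, 267.1, 149.6 and 391 normalized counts in stage order, and its log2 difference of 0.06 between P3 and E13.5 did not pass the test (adjusted p = 0.775), while Ccnd1 was 10-fold higher. Tspan31 stood at 3737, 3913, 742.5 and 2576. Bysl stood at 9244, 3521, 1517 and 4403, close to Ccnd3 itself at E13.5 (9645). For 9330179D12Rik the levels were 0.704, 3.79, 28.2 and 120.2. At E16.5 LTO1 (267.1) stood above Ccnd1 (76.7). Of the 50-base words of the Ccnd1 principal transcript, 27.2% also occur in LTO1. Of those of Ccnd3, 21.7% occur in Bysl or in the pseudogene Ccnd3-ps, and of those of Cdk4 29.5% occur in other transcripts. Part of the reads of Ccnd1, Ccnd3 and Cdk4 is thus uncertain. For Ccnd2 and Cdk6 the shares were 5.17% and 1.49%.

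Markers of Sertoli cells, the somatic cells that surround germ cells and are known to express Ccnd2, moved with the stages. The summed level of 7 Sertoli markers (Amh, Sox9, Dhh, Wt1, Gata4, Inha and Cldn11) ran from 1370 to 2129 in the E13.5 libraries, 2873 to 5998 in those of E16.5, 10959 to 20758 in those of P0 and 4444 to 6336 in those of P3. Inha was the largest part of this sum, with means of 557, 2373, 13060 and 3854 in stage order beside mean sums of 1702, 4167, 17121 and 5128. Cldn11 was at 3 reads or fewer in every library at E13.5 and P3. Of the 6 markers tested, 6 were higher at P0 than at E16.5, as were 27.6% of all genes. At P3, 6 were lower than at P0, as were 36.4% of all genes, and Ccnd1 and Ccnd2 were higher. Between P3 and E13.5, Inha was higher by 2.78 on the log2 scale, Amh fell by 1.02 (not called with equal library totals, adjusted p = 0.0798) and 4 did not pass the test.

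At E16.5 library 4 had both the highest Sertoli sum (5998) and the highest Ccnd2 (2388). Without it, Ccnd2 at E16.5 exceeded E13.5 by 1.40 (adjusted p = 4.11e-08, limma). At P0 the Sertoli sums were 20758, 19647 and 10959 in libraries 1, 3 and 4, in the same order as Ccnd2. At the other stages the orders differed: the Sertoli sums at E13.5 were 2129, 1606 and 1370 while Ccnd2 ran the opposite way, E16.5 libraries 1 and 3 (2873 and 3630) were also opposite, and P3 library 4 had the highest Sertoli sum (6336) and the lowest Ccnd2 (35523). Without P0 library 1, Ccnd2 at P0 exceeded E16.5 by 1.65 (adjusted p = 6.94e-08). The part of Sertoli transcripts in the level of Ccnd2 was not tested, and the order of 3 libraries within a stage cannot decide it. Sertoli markers also remained in the libraries kept in each of these fits. Where a library holds several cell types, a change in cell number cannot be told from a change in RNA per cell.

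Markers of other cells were present too. The 4 peritubular markers (Acta2, Myh11, Des and Pdgfra), contractile and mesenchymal genes, summed to 198 to 230 (E13.5), 1627 to 1960 (E16.5), 3295 to 3716 (P0) and 1185 to 1226 (P3). At P3, 4 of 4 were higher than at E13.5, as were 39.2% of all genes. The 5 Leydig markers, of which Insl3 was at 3 reads or fewer at E13.5 and P3, summed to 179 to 267 at P3 and reached 7681 in E16.5 library 4 and 6106 in P0 library 1. Mast cell markers were at 0 in all libraries of E13.5 and at 1170 to 2434 at P0. Erythroid markers reached 2345 at E16.5 and 2388 at P0. The macrophage sum peaked at E16.5 (975 to 1152) through Cd68 (938 ± 97.9), while Adgre1 and Lyz2 had their highest means at P0 (72.7 ± 21.3 and 75.7 ± 44.4). The endothelial sum peaked at E13.5 (4343 to 5085) through Pecam1 alone (4618 ± 400.3), a gene also known from fetal germ cells. There Cdh5 (9.92 ± 6.39), Kdr (2.84 ± 3.22) and Tie1 (0 in each library) were at their lowest, and Tie1 was highest at P0 (692 ± 62.0). Their part in the members' values was not tested.

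**Figure D4:**
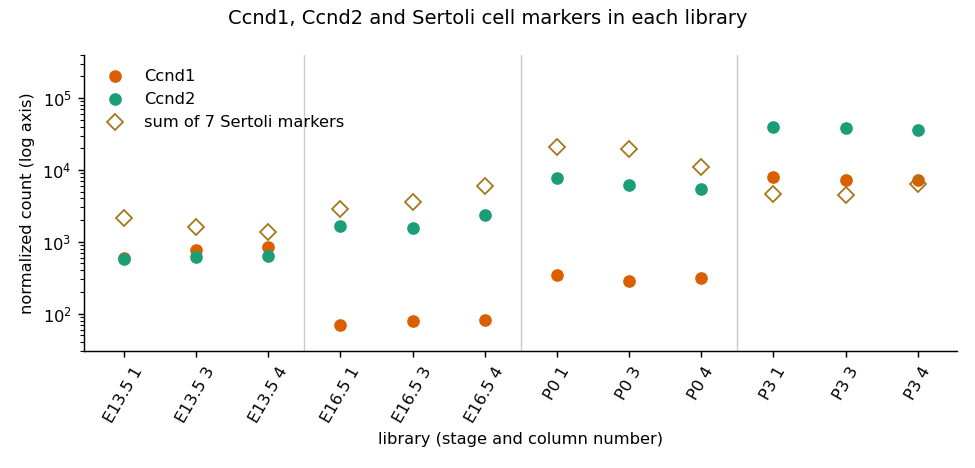
Normalized counts (log axis) of Ccnd1, Ccnd2 and the sum of 7 Sertoli markers in each of the 12 libraries, grouped by stage. The Sertoli sum is highest at P0 (10959 to 20758) and lower at P3 (4444 to 6336), where Ccnd1 (7119 to 7891) and Ccnd2 (35523 to 39378) are at their highest.

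Readouts of division placed the 4 stages. Among 14 tested E2F targets and proliferation genes, 14 were lower at E16.5 than at E13.5 (median -2.45 on the log2 scale) and 14 were higher at P3 than at P0 (median 3.12), beside medians of 0.31 and 0.05 over all genes. The counts of 14 held with median-of-ratios factors and with equal library totals. Over all genes, 34.6% were lower from E13.5 to E16.5 and 33.4% from E16.5 to P0, and 40.1% were higher from P0 to P3. For P3 against E13.5, 39.2% of all genes were higher and 31.2% lower. From E13.5 to E16.5 the change ran from -1.09 for the replicative helicase subunit Mcm7 to -3.41 for the proliferation marker Mki67, and from P0 to P3 it ran from 2.19 for Mcm6 to 4.12 for the S and G2 phase cyclin Ccna2. From E16.5 to P0, 12 of the 14 fell, with the mitotic cyclin Ccnb1 at -2.21, while with equal library totals 7 were lower and 4 higher. At P3 against E13.5, 1 was higher (Mcm3, 0.19, named after its values were seen) and 8 were lower, with a median of -0.28 and Ccnb1 lowest at -1.02, while with equal library totals 6 were higher and 5 lower. Rrm2 is listed at 0 in all 12 libraries.

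The INK4 inhibitors, which bind CDK4 and CDK6 directly, did not move as one. From E13.5 to E16.5, Cdkn2a (0.67), Cdkn2b (0.78) and Cdkn2c (0.53) rose and Cdkn2d fell by 1.31 (adjusted p = 3.05e-09, limma). Cdkn2d stood at 2222 ± 71.2, 905 ± 133, 714 ± 23.4 and 1086 ± 71.5 normalized counts in stage order (SD, n = 3). Cdkn2a stood at 48.9 ± 13.3, 78.2 ± 21.6, 77.3 ± 11.3 and 124.7 ± 19.99. Between P3 and E13.5, Cdkn2a and Cdkn2c rose by 1.35 and 0.79 and Cdkn2d fell by 1.03. At the Cdkn2a locus 2 proteins share exons, so its counts do not separate the CDK inhibitor from ARF.

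Among the CIP/KIP inhibitors, Cdkn1c (p57) and Cdkn1a (p21) moved in opposite directions from P0 to P3. Cdkn1c libraries gave 3498, 3238 and 3353 (E13.5), 1968, 1674 and 1977 (E16.5), 5790, 6074 and 6429 (P0), and 1498, 1485 and 1259 (P3). P0 was thus its highest stage, above E16.5 by 1.71 ± 0.0873 on the log2 scale (SE; adjusted p = 6.32e-11, limma) and above P3 by a margin of 2.11 (adjusted p = 1.82e-12). Cdkn1a stood at 1979 ± 167, 314 ± 51.6, 207 ± 14.6 and 1477 ± 129 in stage order (SD, n = 3), and it rose by 2.83 from P0 to P3, when the D cyclins rose too. Cdkn1b had stage means from 80.95 to 158 and rose by 0.94 from E16.5 to P0 (adjusted p = 0.00504).

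The pocket proteins that cyclin D kinases phosphorylate followed separate courses. Rbl1 (p107) fell by 2.37 from E13.5 to E16.5 and rose by 2.18 from P0 to P3 (adjusted p = 7.8e-11 and 3.1e-10, limma). Rb1 fell by 1.73 from E13.5 to E16.5 and rose by 1.34 from E16.5 to P0. Rbl2 (p130) fell by 0.97 between P0 and P3 (adjusted p = 0.000456).

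Of 10 E2F factors and partners, 8 fell and 2 rose from E13.5 to E16.5 (median -2.20), from the largest fall, 5.80 for the atypical repressor E2f8, to a rise of 1.37 for E2f6. From P0 to P3 10 of 10 rose (median 1.47), though 3 of these calls were lost with equal library totals. Of the genes listed under E cyclins and CDK2, which act after cyclin D, 4 of 4 fell from E13.5 to E16.5 and 4 of 4 rose from P0 to P3. Over all genes, 34.6% were lower from E13.5 to E16.5 and 40.1% were higher from P0 to P3. Ccne1 went from 5627 ± 397 to 306 ± 16.8, 467.8 ± 24.95 and 2821 ± 153 (SD, n = 3), and it remained below E13.5 at P3 by a log2 difference of -0.99 (adjusted p = 2.15e-08, limma). Cdk2 was higher at P3 than at E13.5 by 0.56 (adjusted p = 4.62e-06).

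**Figure D5:**
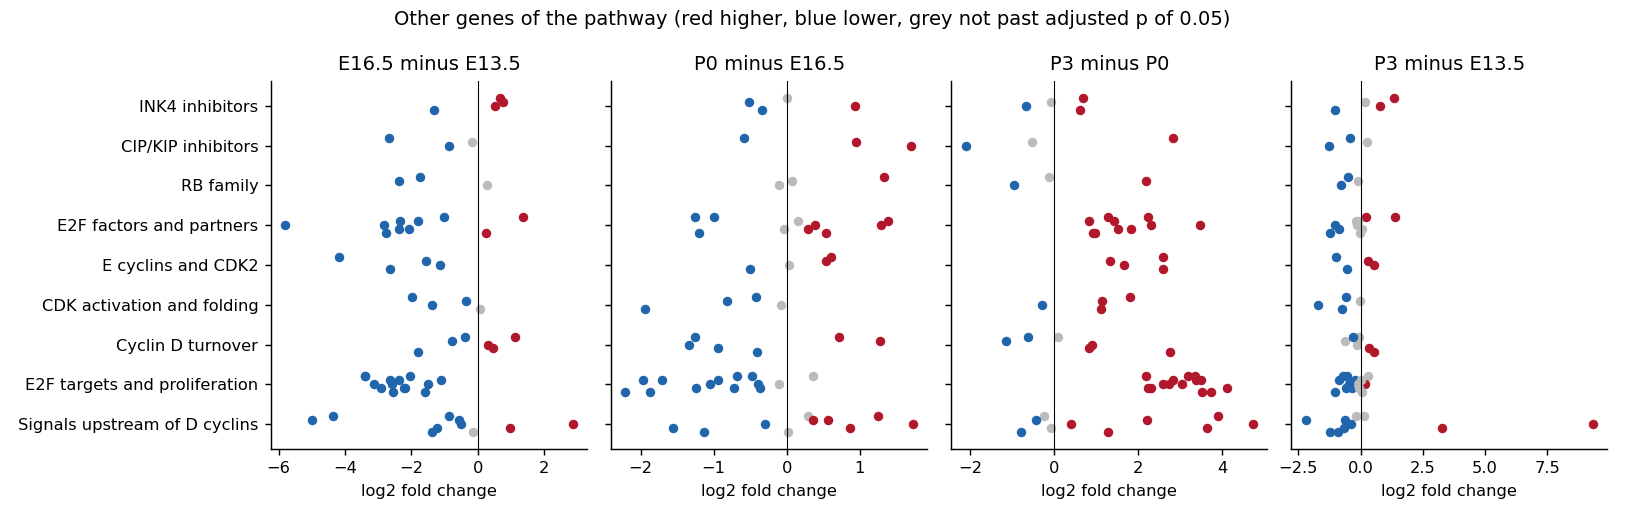
Log2 fold changes of the other genes of the pathway, by list, in 4 comparisons of stages. Points are genes, red where higher, blue where lower and grey where adjusted p was above 0.05. All 14 tested E2F targets lie left of 0 for E16.5 against E13.5 and right of 0 for P3 against P0, while the INK4 and CIP/KIP inhibitors lie on both sides.

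Genes that activate CDK4 or help it fold were counted as well. Cdk7, Ccnh and Mnat1, the CDK-activating kinase, were all lower at E16.5 than at E13.5, by -1.96, -0.33 and -1.37, with Ccnh at -0.11 (adjusted p = 0.142) with median-of-ratios factors and at 0.17 with equal library totals. Cdc37, the chaperone partner that loads CDK4 onto HSP90, stood at 35601 ± 1481, 37645 ± 703, 9817 ± 741 and 21109 ± 948 in stage order (SD, n = 3), and it fell by 1.94 from E16.5 to P0 (adjusted p = 1.41e-12, limma). Of 6 genes of cyclin D turnover, 3 rose and 3 fell from E13.5 to E16.5, where 45.5% of all genes were higher and 34.6% lower. With equal library totals 1 of the 3 falls, that of Skp2, was still called, and those of Fbxo4 and Gsk3b were not (adjusted p = 0.447 and 0.238). In this list Ambra1, the substrate receptor that targets D cyclins for degradation, rose by 1.12 from E13.5 to E16.5 (adjusted p = 5.52e-09) and fell by 1.259 from E16.5 to P0, and its level at P3 (1431 ± 169) was not distinguished from E13.5 (1483 ± 74.3, adjusted p = 0.59).

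Of the 10 genes of signals upstream of D cyclins, the 2 extremes between P3 and E13.5 were a receptor and a transcription factor. Gfra1, the co-receptor for the growth factor GDNF that sustains undifferentiated spermatogonia, stood at 23.2 ± 6.54, 173 ± 15.9, 575 ± 51.4 and 15269 ± 1436 normalized counts in stage order (SD, n = 3). Like Ccnd2 it was higher at each later stage, and it was higher at P3 than at E13.5 by 9.33 ± 0.161 on the log2 scale (SE; adjusted p = 8.87e-17, limma). Mycn, a MYC family factor, stood at 22373, 21862 and 22313 (E13.5), 515.3, 802.4 and 831.8 (E16.5), 1161, 1105 and 883.7 (P0), and 4917, 4460 and 5033 (P3). E13.5 was thus its highest stage. It fell by 4.98 from E13.5 to E16.5 (adjusted p = 1.55e-14), and it was lower at P3 than at E13.5 by a log2 difference of -2.21 (adjusted p = 5.31e-10).

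Among 12281 genes averaging 100 or more normalized counts and carrying no predicted-gene or clone name, the 3 most similar to each member over the 12 libraries were found by Pearson's r of log2(normalized count + 1). For Ccnd1 these were Smim22 (r = 0.991), Agps (0.991) and Id4 (0.991), the last a factor known from spermatogonial stem cells. For Ccnd2 they were Fgf3 (0.996), a fibroblast growth factor, Acsf2 (0.995) and Ctdnep1 (0.993). Ccnd3 was closest to Lrwd1 (0.997), Cs (0.994) and the meiotic cohesin gene Smc1b (0.993). Cdk4 was closest to Amacr (0.997), Mtg1 (0.997) and the chaperonin subunit Cct3 (0.996), and Cdk6 to Shld1 (0.988), Serp1 (0.988) and Cpne3 (0.987). The 12 points share 4 stages and the libraries' scaling, so the values describe a shared course over stages only.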

How the data were processed

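RNA was measured in 12 libraries, 3 at each of 4 stages. The deposited signal is 1 table in which the reads of each gene are scaled by a size factor of the library (RLE), per the file headers and name. Per the submitters' processing notes, bcl2fastq 2.20, cutadapt 1.18, HISAT2 2.1.0, featureCounts 1.5.2 and DESeq2 1.26.0 were used with mm10 (GRCm38). The strand setting, the handling of reads matching several genes and the annotation release are not given in the sources used here. In every library 100% of the authors' values were whole multiples of 1 read within a tolerance of 0.001, which gave back read counts of 40946616 to 51533747 per library and size factors of 0.939, 1.13, 1.94 and 1.01 on average at E13.5, E16.5, P0 and P3. Columns were matched to stages only, since their numbers 1, 3 and 4 are not the labels' replicate numbers. Symbols matched 55141 of 55487 identifiers.

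A limma fit (version 3.58.1, R 4.3.3, eBayes with trend) was made on log2(normalized count + 1), since the table holds scaled values. Genes entered with 10 or more normalized counts in 3 or more libraries, and 1 fit held the 4 stages, and p-values were Benjamini-Hochberg adjusted over 22384 genes with a threshold of 0.05. Ratios within libraries were compared with a two-sided exact permutation test. Fold changes are on the log2(value + 1) scale. Alternatives were TMM, median-of-ratios and equal-total scaling, no filter, a minimum mean of 100, pseudocounts of 0.1 and 10, a fit of 2 stages, leaving out each library, and edgeR 4.0.16 and DESeq2 1.42.0 on the recovered reads. RLE is a name for median-of-ratios scaling. Factors recomputed that way from the recovered reads differed from those of the file, for a reason that was not tested. The code was tested on simulated data. Lengths and overlaps came from GENCODE M21. Python 3.11.15 with numpy 2.4.6, pandas 2.3.3 and matplotlib 3.10.9 did the rest.

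The members, lists, markers and tests were chosen with earlier results of these data known. Beyond the 5 members, genes were named as all members of lists of up to 7, the highest and lowest member of longer lists in a comparison, the 3 genes most correlated with each member, and genes overlapping a member.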

Additional observations from a re-analysis of the deposited data

How the results depend on the processing

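The comparison of P3 with E13.5 kept its direction and its call for all 5 genes under each of the 16 alternatives, and most changes elsewhere involved P0. For Ccnd3 at P0 against E16.5 (log2 -0.16 as reported) the value was -0.0457 with TMM factors, 0.10 with median-of-ratios factors, 0.50 with equal library totals, -0.16 with no filter (adjusted p = 0.0505), -0.16 in a fit of only the 2 stages (adjusted p = 0.116) and -0.16 with edgeR on recovered reads (adjusted p = 0.0502), and it ranged from -0.20 to -0.11 when libraries were left out in turn. For Cdk6 at P3 against P0 it was -0.44 with median-of-ratios factors, -0.84 with equal library totals, 0.004 with edgeR and 0.004 with DESeq2 on recovered reads, and it ranged from -0.1085 to 0.0948 over left-out libraries, turning to 0.0324 without P0 library 1 and to 0.0948 without P3 library 4. Cdk4 at P3 against E16.5 was 0.0518 with median-of-ratios factors and 0.0569 with equal library totals. Equal library totals also gave 0.11 for Cdk4 at P0 against E16.5, -0.0512 for Cdk4 at P3 against P0, -0.0628 for Ccnd1 at P0 against E13.5 and 0.0567 for Ccnd3 at P0 against E13.5. The scalings change the factors by construction, and for the other changes the cause was not tested. The 4 log2 ratios kept their sign under each alternative run for them, though the changes of length among these could not alter it. No member had fewer than 73 reads in a library. Counting error weighs most on Ccnd1 at E16.5 (73 to 104 reads) and on the fold changes and ratios that use it. No paired analysis was possible because the numbers 1, 3 and 4 in the table do not tie a library to a replicate named in the labels. A two-sided exact test of 3 libraries against 3 cannot go below 0.1.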
